A study of Xenopus laevis with 12 samples.

Results

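The regions described here are the Sox3-bound peaks of blastula stem cells at stage 9 of Xenopus laevis. Every peak in the list for that stage was taken, which gives 124076 of the 129376 peaks in the series. The list comes from 3 Sox3 ChIP libraries and 3 control ChIP libraries, all from animal pole explants of wild type genotype at stage 9. The Sox3 explants came from embryos injected with mRNA for Myc-tagged Sox3, and the controls had no such treatment. Chromatin from pooled explants was immunoprecipitated through the Myc tag and then cut on the beads by the transposase Tn5, so the peaks report tagged protein made from injected mRNA and not the embryo's own Sox3. The 6 libraries gave 1 list, so no peak has a value per replicate and no spread between replicates can be given. The depth of the libraries is unknown, because the list holds no read counts. The labels were not checked against markers, since a ChIP peak list carries no expression values.

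Sox3 is a SoxB1 protein, a family of transcription factors that bind DNA through an HMG box and act with POU-domain factors in pluripotent cells and in the early nervous system. SoxB1 proteins can bind sites in closed chromatin, and many of their binding sites lie in introns or between genes, where enhancers are found. Xenopus laevis is an allotetraploid frog whose chromosomes form 2 subgenomes, L for long and S for short, derived from the 2 species that gave rise to it. A promoter is the sequence around a transcription start site (TSS), and a transcription termination site (TTS) is the end of the transcribed unit. Positions are given in the 9.2 genome and counted from 1. Transcripts in the list carry internal numbers, and 0 of the 51172 identifiers matched the gene table, so regions are given by position rather than by gene name. No sequences are shown, as the genome of this build was not used here.

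Neighbouring Sox3 peaks lay a median of 9805 bp apart, from the end of one peak to the start of the next, over 121500 gaps (order-statistic 95% interval 9692 to 9932 bp). The quartiles were 2681 and 27389 bp. Among the 61596 peaks with an area of at least 100, that is score times width over 1000, the median gap was 19840 bp. Over the 18 assembled chromosomes the median gap averaged 9886 ± 689 bp (SD), with the shortest on chr9_10L (8599.5 bp) and the longest on chr6S (10860 bp). Gaps under 10 kb made up 50.5% of the total and gaps under 50 kb made up 88.0%. Only 3895 gaps (3.21%) were over 100 kb. The intervals given here and below cover counting error only, because peaks are not replicates.

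On a log scale, gaps were most frequent between 15849 and 19953 bp (7027 gaps), with a separate rise at the short end. The peak caller, Genrich, by default joins signal up to 100 bp apart, and the shortest gap in the list was 101 bp. In the first class above this limit, from 101 to 200 bp, there were 5803 gaps, against 2012 from 201 to 300 bp and 1559 from 301 to 400 bp. Beyond that the number declined slowly, to 1113 gaps at 901 to 1000 bp and 742 at 1901 to 2000 bp. In all, 13.6% of gaps were shorter than 1 kb (Wilson 95% interval 13.4 to 13.8%). This share was between 12.3% on chr6S and 15.0% on chr8L. It depends on how distance is measured and on which peaks count, with 10.5% from centre to centre and 7.02% among peaks with an area of at least 100.

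**Figure D1:**
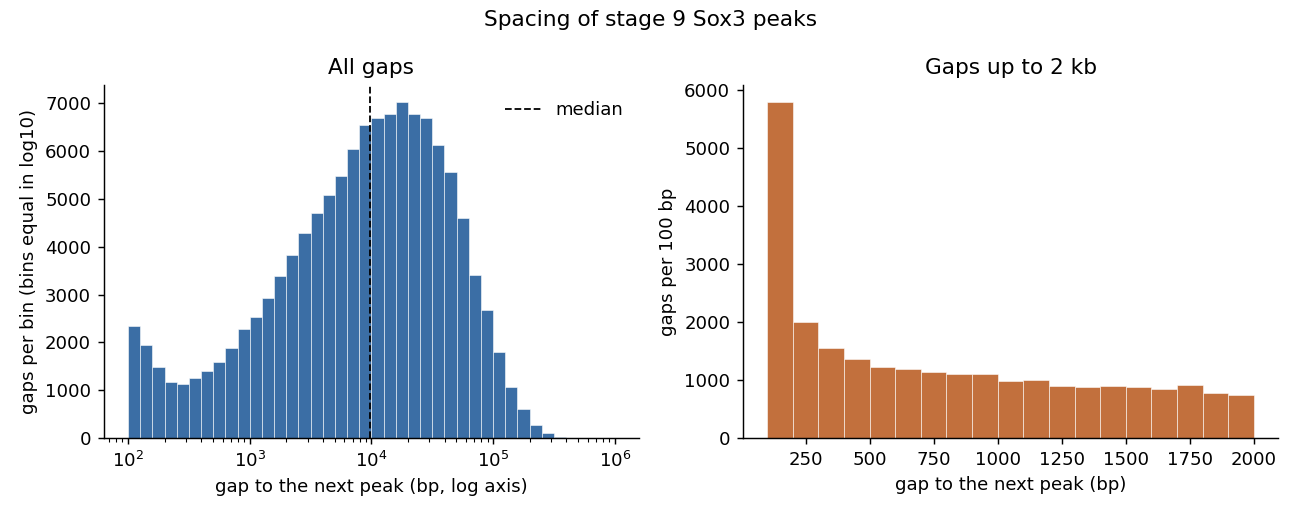
Gaps between neighbouring stage 9 Sox3 peaks. Left, number of gaps by length in bp on a log axis, in bins of equal log10 width, with the median of 9805 bp as a dashed line; right, gaps of up to 2 kb in bins of 100 bp, where the first bin holds 5803 gaps and the next 2012.

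Pairs of adjacent peaks were mostly assigned to the same transcript when they were close. Of pairs 100 to 200 bp apart, 94.1% had the same nearest TSS, and the share was 91.1% at 500 to 1000 bp, 71.2% at 5 to 10 kb and 57.8% at 10 to 20 kb. Above 100 kb it was 15.7%. Where both peaks had the same nearest TSS, they stood on opposite sides of it in 6.37% of pairs 100 to 200 bp apart and in 35.5% of pairs over 100 kb apart. The genomic feature was shared by 85.1% of the closest pairs and by 52.2% of those over 100 kb apart.

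The nearest neighbour was closest for promoter peaks and farthest for intergenic peaks. Promoter peaks had another peak at a median of 2203.5 bp (95% interval 2097 to 2311 bp), compared with 4833 bp (4747 to 4934 bp) for intergenic peaks. TTS, exon and intron peaks lay between these, at 2666, 2895.5 and 3721 bp. A neighbour within 1 kb was found for 36.7% of promoter peaks, 34.0% of TTS peaks, 29.9% of exon peaks, 24.4% of intron peaks and 20.7% of intergenic peaks. The order of the features was the same by both measures, although the intervals of the medians of TTS and exon peaks overlapped (2472 to 2870 bp and 2738 to 3059 bp). Peaks on scaffolds without an annotated transcript had the closest neighbours of all (median 369 bp), but only 271 of them shared a scaffold with another peak.

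Peaks joined by gaps of at most 1 kb formed 107550 chains. Of these, 94013 were single peaks and 13537 held 2 or more, with 30063 peaks (24.2% of the list) among them. There were 11250 chains of 2 peaks, 1795 of 3, 364 of 4 and 128 of 5 or more. Over all peaks, 8.61% lay at promoters. This share was 7.21% in single peaks, 11.9% in chains of 2, 15.7% in chains of 3, 17.4% in chains of 4 and 18.01% in chains of 5 or more. At least 1 promoter peak was present in 63 of the 128 longest chains (49.2%), against 8.84% of all chains. A chain of more peaks is more likely to include one by construction. A chain of 2 spanned a median of 925.5 bp and a chain of 5 or more spanned 3755 bp.

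The longest chains held 9 peaks, and there were 3 of them. The one with the largest summed area spanned 8421 bp at chr9_10S:84230832-84239252. All 9 of its peaks were intronic, with widths of 152 to 1027 bp, scores of 51 to 1000 and gaps of 143 to 799 bp, and 4 were at the maximum score. The chain at Scaffold307:16534-23380 spanned 6847 bp on a scaffold without an annotated transcript, and 3 of its peaks were at the maximum. The chain at chr4S:19351183-19356570 spanned 5388 bp and comprised 5 intron peaks, 3 promoter peaks and 1 TTS peak. Its peaks had widths of 72 to 449 bp and gaps of 101 to 943 bp, and 1 reached the maximum score.

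Peak area, the product of score and width over 1000, varied with the distance to the nearest neighbour. Where the score stands at its maximum of 1000, the true area may be larger. The median area was 95.7 for peaks with a neighbour within 1 kb, 115 at 1 to 5 kb, 95.7 at 5 to 20 kb and 83.0 at 20 to 50 kb. Width followed the same course, with medians of 226, 252, 223 and 199 bp. The maximum score was reached by 19.0% of peaks with a neighbour within 1 kb, 20.95% at 1 to 5 kb, 17.4% at 5 to 20 kb and 15.0% at 20 to 50 kb. The 296 peaks more than 100 kb from any other were mostly intergenic (67.9%), and 3.72% of them were at promoters, against 12.98% of peaks with a neighbour within 1 kb. Over all peaks, 40.7% were intergenic and 8.61% were at promoters.

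The peaks were spread over all assembled chromosomes. Of the total, 115224 lay on the 18 assembled chromosomes and 8852 (7.13%) on 2558 unplaced scaffolds. Counts per chromosome ranged between 4221 on chr7S and 10130 on chr1L. Across the chromosomes they followed length, taken as the end of the last peak (Pearson r = 0.98, Spearman rho = 0.94, n = 18 chromosomes that share the same libraries, a description only). The density averaged 46.2 ± 2.43 peaks per Mb (SD over 18 chromosomes). It was highest on chr9_10L (51.0 per Mb, 95% counting interval 49.8 to 52.3), followed by chr8S (50.8) and chr8L (49.1), and lowest on chr1S (43.2, 42.2 to 44.1). The highest exceeded the lowest 1.18-fold (1.13 to 1.24). Both were picked as extremes of the 18 chromosomes, which this interval does not allow for. Counts in 1 Mb windows had a variance 5.9 times their mean, so counting intervals understate the spread of density. The intervals of each chromosome and the next in this order overlapped.

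The chromosomes with more peaks per Mb also had more of them at promoters. Promoter peaks made up 10.9% of the peaks on chr8L, 10.0% on chr9_10L and 10.0% on chr8S, against 6.97% on chr6S. Intergenic peaks were least frequent on chr9_10L (33.9%) and most frequent on chr5S (47.7%). Over the 18 chromosomes, density went with the promoter share (Spearman rho = 0.79, Pearson r = 0.79) and against the intergenic share (rho = -0.69, r = -0.68). It had little relation to the median area (rho = 0.040, r = -0.12). These correlations are descriptions over chromosomes of the same libraries, and gene density was not measured. Intron peaks ranged between 37.6% on chr5S and 45.8% on chr9_10L.

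**Figure D2:**
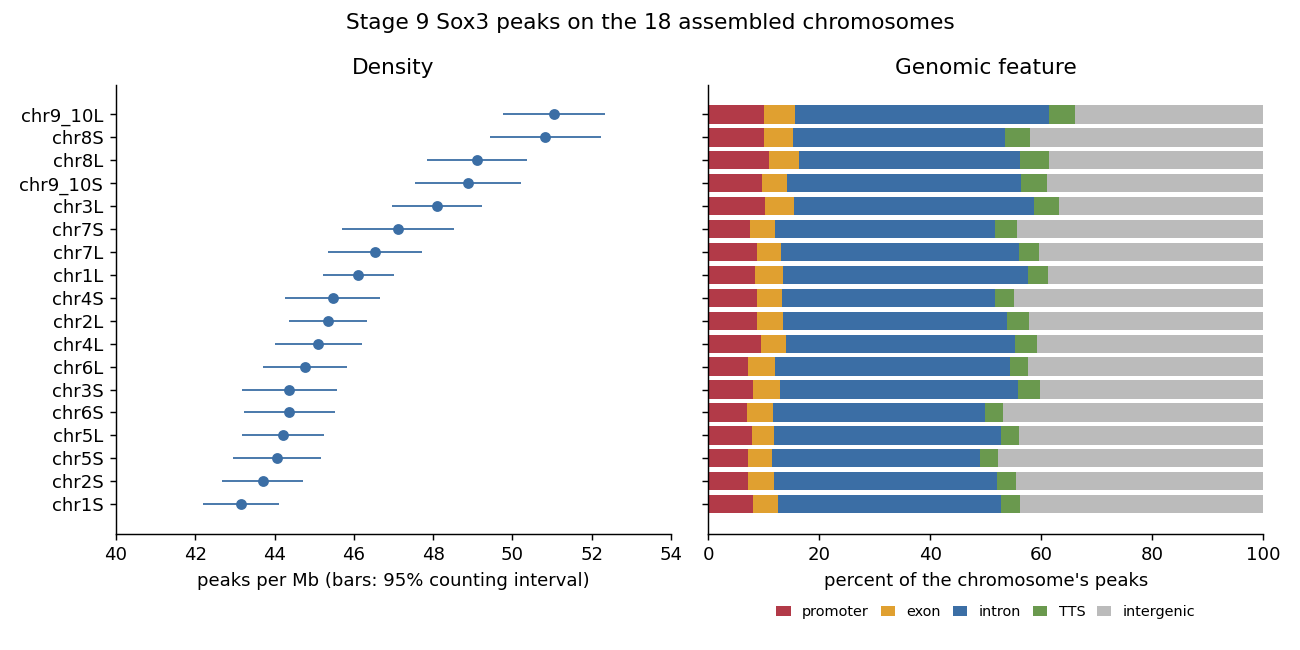
Stage 9 Sox3 peaks on the 18 assembled chromosomes, ordered by density. Left, peaks per Mb with 95% counting intervals on an axis that starts at 40; right, percent of each chromosome's peaks by genomic feature. Density runs from 43.2 per Mb on chr1S to 51.0 per Mb on chr9_10L, and the promoter share is largest on chr8L (10.9%).

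Each L chromosome has a homeologous S chromosome, and the S copy held fewer peaks in 9 of 9 pairs. The ratio of S to L was lowest for chromosome 7, at 0.715 (4221 and 5902 peaks), and highest for chromosome 5, at 0.854 (6012 and 7043 peaks). The S chromosomes are also shorter. Per Mb the S copy was lower in 6 of 9 pairs, with ratios between 0.923 for chromosome 3 and 1.04 for chromosome 8. Together the S chromosomes carried 51658 peaks at 45.4 per Mb and the L chromosomes carried 63566 peaks at 46.5 per Mb.

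Width and area changed little between chromosomes. The median width ranged between 223 bp on chr3S and 236 bp on chr9_10L, and the median area between 94.0 on chr9_10S and 105 on chr8L. The share of peaks at the maximum score ranged between 17.0% on chr4S and 19.7% on chr8L. Summed over chromosomes, the 10 equal divisions of the length each held between 8.33% (the last) and 10.8% (the seventh) of the peaks. On single chromosomes the spread was wider, and a division held between 6.60% and 13.1% of that chromosome's peaks. In windows of 1 Mb the median was 44 peaks (quartiles 34 and 57), and none of the 2498 windows was empty. The variance of the counts per window was 5.9 times their mean. The densest window, chr6S:1000001-2000000, held 131 peaks. The sparsest, chr4S:56000001-57000000 and chr8L:100000001-101000000, held 7 each. The longest stretch without a peak was 645386 bp, at chr4S:56372934-57018319. Unsequenced bases in such stretches were not examined.

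Intron peaks were most frequent in the first introns of the transcript. Of 49864 intron peaks, 14951 were in intron 1, which is 29.98% (Wilson 95% interval 29.6 to 30.4%; SD over chromosomes 2.44). Intron 2 held 18.1%, intron 3 held 11.01%, intron 4 held 7.27% and intron 5 held 5.36%. Introns beyond intron 10 together held 13.7%. The intron 1 share was lowest on chr1L (25.5%) and highest on chr6S (33.7%). The intron number belongs to the transcript that the annotation chose for the peak.

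A low intron number is available in more transcripts than a high one, so the peaks were also counted by the number of introns in the transcript. In transcripts with at least 2 introns, intron 1 held 26.1% of 47275 peaks (25.8 to 26.5%), against 12.7% if the peaks of each transcript were shared equally among its introns. The last intron held 6.63% (6.41 to 6.85%). Intron 1 was above and the last intron below the equal share on 18 of 18 chromosomes. The same held in each class of transcript by intron number. With 2 introns, intron 1 held 61.7% against an equal share of 50%. With 5 introns it held 31.7% against 20%, with 10 introns 25.9% against 10%, and with more than 30 introns 15.9% against 2.44%. In transcripts with at least 5 introns, the 5 successive divisions of the intron order held 42.9, 19.8, 14.9, 12.2 and 10.2% of the peaks. Intron lengths were not used here, so the counts are per intron and not per base.

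**Figure D3:**
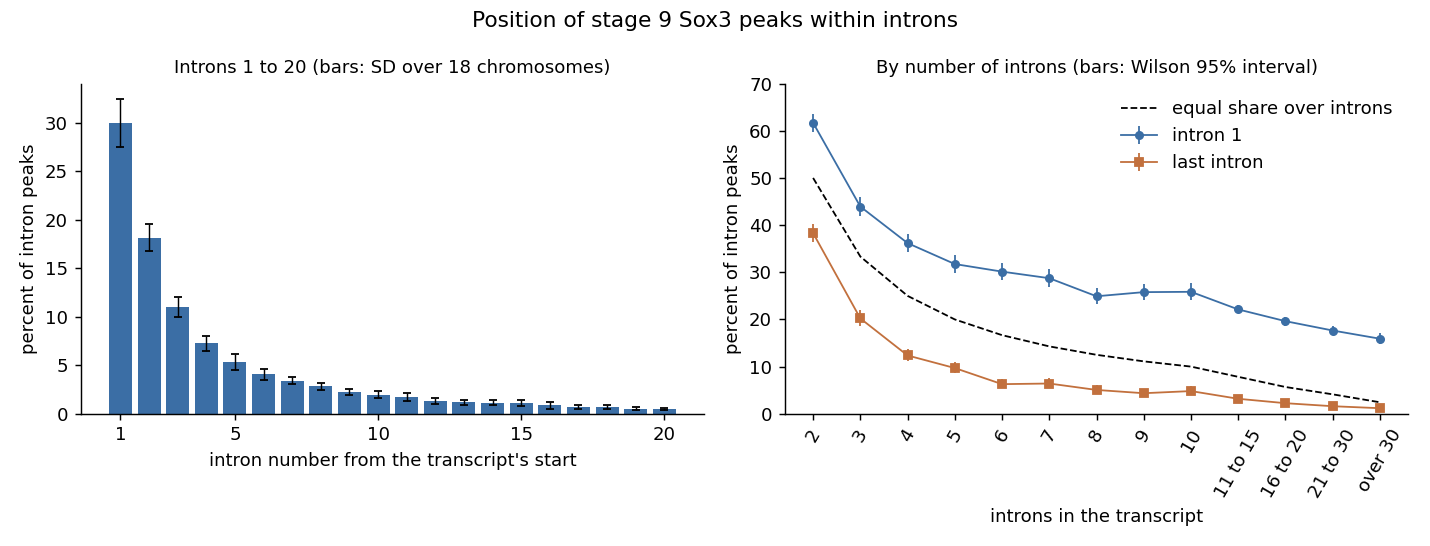
Position of stage 9 Sox3 peaks within introns. Left, percent of 49864 intron peaks in introns 1 to 20, with the SD over 18 chromosomes; right, percent in intron 1 (circles) and in the last intron (squares) by the number of introns in the transcript, with Wilson 95% intervals, and the equal share as a dashed line. Intron 1 lies above the dashed line and the last intron below it in every class shown.

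The intron peaks lay in 18471 transcripts, and 8177 of these (44.3%) had a single intron peak. The most, 50, were found in the transcript listed as rna91317, and these peaks spanned 1281451 bp at chr5L:26094872-27376322. They stood in 10 of its 18 introns, from intron 4 to intron 17, and 20 of them were in intron 4. Their median area was 109, with areas of 22.6 to 857, and 11 were at the maximum score. Peaks of all features stood at 44.2 per Mb on chr5L, so 50 over this span is not above the density of the chromosome.

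The transcript that holds an intron peak was often not the one with the nearest TSS. The 2 were the same for 51.0% of all intron peaks, for 65.1% of those in intron 1, 64.1% in intron 2, 57.3% in intron 3 and 48.2% in intron 4. Beyond intron 10 they were the same for 18.2%. Peaks in intron 1 were a median of 5446 bp from their nearest TSS, and those beyond intron 10 were 22152 bp away. For comparison, the annotated and the nearest transcript were the same for 76.2% of promoter peaks, 65.7% of exon peaks and 44.6% of TTS peaks. These are comparisons of transcript identifiers, and 2 transcripts of the same gene count as different.

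Peaks in early introns were somewhat wider. The median width was 241 bp in intron 1 (95% interval 237 to 245 bp), 236 bp in intron 2, 230 bp in intron 3, 219 bp in introns 6 to 10 and 221 bp (216 to 226 bp) beyond intron 10. The median area was 107 in introns 1 and 2 and 94.0 beyond intron 10. The share at the maximum score was 20.4% in intron 1 and 16.8% beyond intron 10.

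Exon peaks were fewer, 5867 in all. Exon 1 held 41.9% of them (40.7 to 43.2%; SD over chromosomes 4.70), with the lowest share on chr9_10S (29.3%) and the highest on chr3S (48.3%). This count includes 671 peaks in transcripts of a single exon. In transcripts with at least 2 exons, 1788 peaks lay in the first exon, 1708 in an internal exon and 1700 in the last exon. Exon 1 thus held 34.4% and the last exon 32.7%, against an equal share of 19.6% for each. In transcripts of 2 exons, exon 1 held 48.9%, an interval (45.7 to 52.2%) that includes the equal share of 50%. Exon 1 held more than the last exon with 3 exons (43.5% and 36.9%) and with 8 or more (28.4% and 23.1%, equal share 6.84%). The last exon held more with 4 exons (34.9% in exon 1 and 41.8% in the last), with 5 (30.98% and 39.4%) and with 6 (33.5% and 39.3%), and with 7 both held 32.3%. Exon peaks thus differed from intron peaks in the last position, where the share was above the equal share for exons and below it for introns. As for introns, lengths were not taken into account. All 2096 peaks centred 1 to 100 bp downstream of their nearest TSS were classed as promoter peaks, so none of them counts in exon 1. Peaks of the TTS class are likewise left out of the exon counts. The comparison of exon 1 with the last exon therefore depends on how the classes are drawn.

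Peaks in last exons were of larger area than those in first or internal exons. The median width was 244 bp in last exons (232 to 255 bp) and 232 bp in first exons (220 to 245 bp), whose intervals overlapped, and 203.5 bp in internal exons. The median area was 100.9 (95% interval 92.6 to 111) in last exons, 78.0 (73.7 to 85.7) in first exons and 78.9 (72.4 to 85.1) in internal exons. The maximum score was reached by 18.6% of peaks in last exons, 12.1% in first exons and 15.5% in internal exons. Of 5163 transcripts with an exon peak, 88.6% had 1. The most was 6, in 4 transcripts, whose exon peaks lie at chr6S:1198107-1201838, chr2L:87947414-87959298, chr4S:4671322-4683391 and chr6S:1961966-1964662.

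Around the TSS, Sox3 peaks were slightly more frequent downstream than upstream. Within 5 kb of the nearest TSS, 18577 of 40636 peaks had their centre upstream and 22059 downstream. The upstream share was 45.7% (Wilson 95% interval 45.2 to 46.2%; SD over chromosomes 1.57), and it was under 50% on each of the 18 chromosomes (42.1 to 48.4%). Over all 121698 peaks with a TSS and a distance other than 0 it was 45.3%. How much of the genome lies on each side of its nearest TSS was not measured, so these shares have no baseline.

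The side changed with distance. Up to 100 bp from the TSS, 52.8% of peaks were upstream (51.3 to 54.2%), and 16 of 18 chromosomes were above 50%. At 100 to 250 bp the share was 49.8%, an interval (48.3 to 51.4%) that includes 50%. It was 42.0% at 250 to 500 bp, 40.0% at 500 to 1000 bp (38.6 to 41.4%), 44.5% at 1 to 2 kb and 45.9% at 2 to 5 kb. Beyond 100 kb it was 48.4% (47.3 to 49.5%), with chromosomes between 37.5 and 60.3%. In bins of 50 bp, the numbers were highest in the 50 bp before the TSS (1317 peaks) and in the 50 bp that start at the TSS (1188, with peaks centred on the TSS itself included). At 450 to 500 bp there were 268 peaks upstream and 367 downstream.

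**Figure D4:**
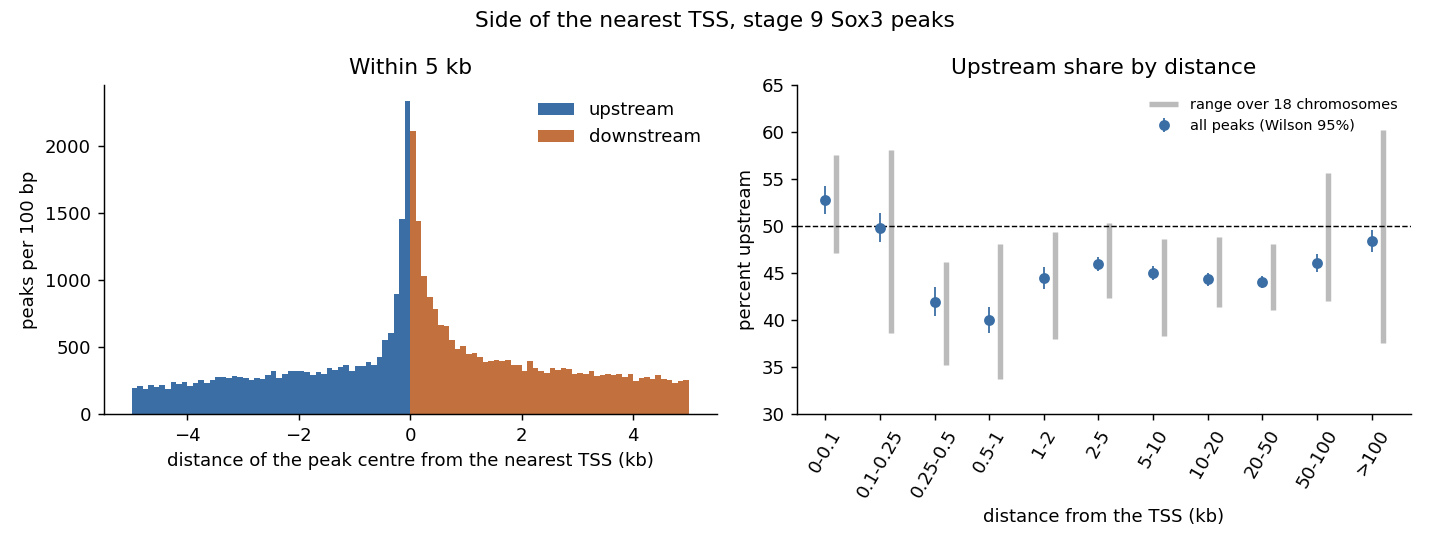
Side of the nearest TSS on which stage 9 Sox3 peaks lie. Left, peaks per 100 bp by distance of the peak centre from the TSS in kb, upstream negative and a distance of 0 counted as downstream; right, percent upstream by distance class, with Wilson 95% intervals (circles) and the range over 18 chromosomes (grey bars), on an axis from 30 to 65%. The share is 52.8% within 100 bp and 40.0% at 500 to 1000 bp.

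The features under the peaks differed on the 2 sides. Upstream at 1 to 5 kb, 63.3% of 10812 peaks were intergenic and 31.8% lay in an intron. Downstream at 1 to 5 kb, 64.97% of 12964 peaks lay in an intron, 35.2% of all of them in intron 1. Between 100 bp and 1 kb downstream, 33.4% of 6999 peaks were in exons, 28.8% in the TTS class, 26.7% in introns and 11.1% at a promoter. By feature, 62.2% of intergenic peaks were upstream of their nearest TSS (61.8 to 62.7%), and the chromosomes lay between 58.5 and 66.3%. Those upstream were a median of 16355 bp away and those downstream 27565 bp. Of intron peaks 29.0%, of exon peaks 15.2% and of TTS peaks 10.9% were upstream. Introns, exons and TTSs lie downstream of the TSS of their own transcript, so these upstream peaks were all nearest to the TSS of another transcript. Another transcript was nearest for 49.0% of intron, 34.3% of exon and 55.4% of TTS peaks. For promoter peaks the share of 72.7% also follows from the definition of the class, which reaches farther upstream of a TSS than downstream.

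The maximum score was rarest next to the TSS. Within 100 bp, it was reached by 12.4% of peaks upstream and 12.02% downstream. At 2 to 5 kb these shares were 21.9% and 20.9%. At 100 to 250 bp, peaks upstream of the TSS had a median width of 266 bp and a median area of 108, and those downstream had 235 bp and 85.0. At 2 to 5 kb the widths were 237 bp upstream and 240 bp downstream.

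The distances of the peaks assigned to 1 transcript allow its TSS to be placed, and peaks on both sides of it to be counted. All 26251 transcripts with at least 2 peaks could be placed to within 2 bp, 12610 of them on the forward strand and 13641 on the reverse strand. Peaks on both sides of the TSS were found for 10415 transcripts (39.7%), on the upstream side alone for 6741 (25.7%) and on the downstream side alone for 9095 (34.6%). A promoter peak was present for 10008 of 45449 transcripts (22.0%), and 5925 of these had at least 1 further peak.

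By feature, promoter peaks were the widest but were less often at the maximum score. The median width was 240 bp at promoters (95% interval 236 to 245 bp), 231 bp in introns, 228.5 bp at TTSs, 224 bp between genes (222 to 226 bp) and 223 bp in exons. Within the intron and exon classes, peaks in intron 1 (241 bp) and in last exons (244 bp) were about as wide as promoter peaks. Promoter peaks exceeded intergenic peaks by 16 bp (10 to 23 bp), and did so on 16 of 18 chromosomes, with differences of -4 bp on chr8S to 34 bp on chr2L. The difference was 33 bp (23 to 42 bp) among peaks with an area of at least 100 and 32 bp (22 to 39 bp) with only the largest peak of each chain. Both settings select by area, which includes width, so they are not separate support for the difference. The maximum score was reached by 15.2% of promoter peaks and 15.4% of exon peaks, against 18.3% of TTS peaks, 19.0% of intron peaks and 19.3% of intergenic peaks. The promoter share was below the intergenic share on 18 of 18 chromosomes.

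The median area was 102 in introns, 98.3 at TTSs and 85.5 in exons. Promoter peaks had a median area of 94.4 (91.4 to 97.6) and intergenic peaks 98.9 (97.2 to 100.25). Their ratio was 0.954, with an interval (0.912 to 1.00) that reaches equality, and it was below 1 on 14 of 18 chromosomes. On the 18 assembled chromosomes alone it was 0.947, with an interval (0.903 to 0.997) just below 1. Among peaks below the maximum score, promoters were at 74.1 and intergenic peaks at 71.2. That ratio was 1.04 with an interval (0.992 to 1.09) that includes 1. Score is a factor of area, so leaving out the saturated peaks also selects on area. It removed 15.2% of promoter and 19.3% of intergenic peaks. The change in the ratio therefore cannot decide the direction of this difference. Below the maximum, the median widths of promoter and intergenic peaks were 213 and 193 bp. Across all peaks, the Spearman correlation of width with score was 0.37, and below the maximum it was 0.14, a description over peaks that share the same libraries. The minimum area at peak calling leaves out peaks that are both narrow and of low score, which affects both correlations by construction. Peaks up to 100 bp wide had a median score of 434, against 405 at 100 to 150 bp.

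**Figure D5:**
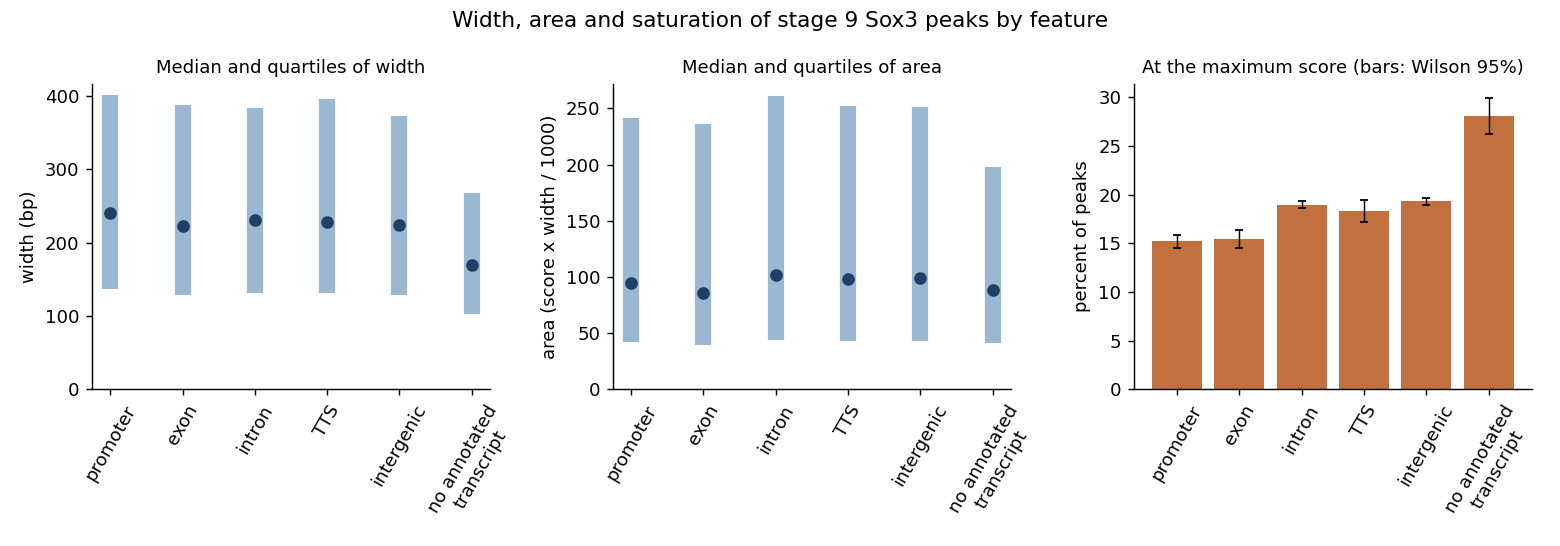
Width, area and saturation of stage 9 Sox3 peaks by genomic feature. Circles are medians and bars quartiles of width (bp) and of area (score x width / 1000); the right panel gives the percent of peaks at the maximum score with Wilson 95% intervals. Promoter peaks have the widest median (240 bp) and 15.2% at the maximum, and peaks on scaffolds without an annotated transcript have the narrowest (170 bp) and 28.1%.

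The summed area, as listed, was unevenly divided among the peaks. At the maximum score, reached by 18.8% of all peaks, area equals width and the true area may be larger. The shares of area below therefore describe listed areas, and how far signal was concentrated cannot be read from them. The top 1% of peaks by area, 1240 peaks with areas of at least 931, held 6.10% of the total, the top 10% held 36.9% and the top 50% held 87.1%. By feature, the share of the summed area was close to the share of peaks. Introns held 40.98% of the area and 40.2% of the peaks. Intergenic peaks held 40.4% and 40.7%, and promoter peaks 8.63% and 8.61%. At the other end, 9256 peaks had areas of 20 to 25, just above the minimum of 20 set at peak calling. A further 30 lay just under it, the lowest at 19.9, with the rounding of scores to whole numbers.

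Peaks over 1 kb wide numbered 1030 (0.830%). They comprised 1.45% of promoter, 1.26% of TTS and 1.23% of exon peaks, against 0.804% of intron and 0.665% of intergenic peaks. Of the peaks over 1 kb, 15.0% were at promoters, compared with 8.02% of peaks up to 100 bp and 8.61% of all peaks. The maximum score was reached by 75.05% of the peaks over 1 kb, against 18.8% of all peaks. The widest peak of all, 4299 bp, was at chr3L:143065808-143070106. It was intergenic, 11209 bp upstream of the nearest TSS, with its nearest neighbour 119 bp away. Next by area were peaks in intron 1 at chr9_10L:94045455-94048056 (2602 bp, with a neighbour 109 bp away) and chr7S:56368332-56370873 (2542 bp, 1777 bp downstream of the nearest TSS). All 3 were at the maximum score.

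The widest promoter peak spanned 2432 bp at chr3L:96407773-96410204, with its centre 333 bp upstream of the TSS and the maximum score. The widest exon peak, 2083 bp in exon 1 of 3, was at chr2L:122722533-122724615, also at the maximum. The widest TTS peak, 2485 bp at chr3L:57949461-57951945, had a score of 635 and an area of 1578.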

How the data were processed

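ChIP-seq was performed on stage 9 animal pole explants, in 3 Sox3 and 3 control libraries sequenced on a NextSeq 500. The authors used fastp for trimming, bowtie2 for alignment to genome build 9.2 and SAMtools for file handling, and the submitters' processing notes also name Picard. Peaks were called by Genrich on all libraries together, without mitochondrial sequence and with a minimum area of 20, and were annotated with HOMER. Versions are not given in the sources used here. The deposited score is a whole number of up to 1000 for each peak against the control libraries.

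Widths, gaps, chains, shares and distances were computed from the list with pandas 2.3.3, scipy 1.17.1 and numpy 2.4.6 in Python 3.11.15. Figures were plotted with matplotlib 3.10.9. Widths, gaps, chains, intron numbers and the order-statistic and Wilson intervals were checked on simulated data. Distances and sides of the TSS were not checked in this way. Medians carry order-statistic and shares Wilson 95% intervals. Intervals of ratios and differences join the outer ends of the 2 separate intervals, so they are wider than 95%. No test was run, because the pooled list has no replicates and peaks are not replicates. HOMER's promoter class reaches 1 kb upstream and 100 bp downstream of a TSS, and 92.7% of promoter peaks lay in that window around their nearest TSS. The extent of its TTS class was not examined, so a TTS peak need not lie at the termination site itself. Regions named are the 3 longest chains, the 3 largest areas, the widest peak of each feature and the transcripts with most intron or exon peaks, while windows and long gaps were picked by their values. The members and these measures were chosen with earlier results of these data known. The list of the other stage was only counted. Alternatives changed the sequences used, the minimum area, the saturated peaks, the distance, the chains and the TSS limit.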

Additional observations from a re-analysis of the deposited data

How the results depend on the processing

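Of 35 alternative values, 18 moved out of the interval of the value reported. The others stayed inside it, except the number of chains, which has no interval and was 113330 when peaks were joined at 500 bp and 98676 at 2 kb, against 107550 at 1 kb. For the ratios and the width difference that interval is wider than 95%, so fewer of their values count as moved. Density on the highest over the lowest chromosome stayed at 1.18 in each setting, with the highest and lowest picked anew each time. With 1 peak per chain the highest was chr8S (44.2 chains per Mb), ahead of chr9_10L (43.7). A minimum area of 100 left 61596 peaks, with a median gap of 19840 bp, 7.02% of gaps under 1 kb, 30.6% of intron peaks in intron 1, 40.2% of exon peaks in exon 1 and promoter peaks 33 bp wider than intergenic peaks. Without peaks at the maximum score, 100801 peaks gave a median gap of 13139 bp, 11.1% of gaps under 1 kb, 29.5% in intron 1 and a promoter to intergenic area ratio of 1.04. Fewer peaks lengthen gaps by construction. Selecting by area also selects on width, as with the minimum of 100 and the largest peak of each chain. Leaving out the maximum score selects on score, a factor of area, so the area ratio can shift by construction. For the other changes the cause was not tested. Measured from centre to centre, the median gap was 10101.5 bp and 10.5% were under 1 kb, and on assembled chromosomes alone 13.4% were. With the largest peak of each chain, intron 1 held 28.9%, exon 1 held 40.1%, the upstream share within 5 kb was 46.2%, the width difference 32 bp and the area ratio 1.05. The area ratio thus crossed 1 without the saturated peaks and with the largest peak of each chain. Its intervals there include 1 but are wider than 95%. On assembled chromosomes alone the area ratio was 0.947 (0.903 to 0.997). With a limit of 50 kb the upstream share was 44.9%. No paired analysis was possible because the stage has 1 list whose columns carry no replicate, and no replicate could be left out for the same reason. The unknown depth limits what the absence of a peak says about a region.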

Other observations

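Peaks on unplaced scaffolds stood apart from the assembled chromosomes in several measures. The 8852 peaks lay on 2558 scaffolds, of which 2240 (87.6%) held 1 peak and the richest held 411. The maximum score was reached by 21.7% of them, against 18.5% on assembled chromosomes, and their median width was 197 bp. The highest share was found for the 2341 peaks on 2177 scaffolds without an annotated transcript (28.1%, Wilson 95% interval 26.3 to 29.9%), whose median width was 170 bp. Below the maximum score these peaks had a median width of 140 bp and an area of 55.6, compared with 196 bp and 71.8 over all peaks. Repeat content and copy number of these scaffolds were not examined.

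By density, the 1 Mb windows next after the densest were chr7L:93000001-94000000 with 110 peaks, chr8S:26000001-27000000 and chr9_10S:1-1000000 with 107 each, and chr6S:19000001-20000000 with 102. Of 2498 windows, 5 held over 100 peaks and 4 held under 10. The longest gaps after the one on chr4S were 463031 bp at chr1S:57951927-58414957 and 408112 bp at chr2L:163280496-163688607. The windows and gaps were chosen after their values were seen.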
